A study of Mus musculus with 6 samples.

Results

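The interleukin 6 family of cytokines and its receptors was examined in infarcted mouse myocardium. The 10 genes were chosen by name, though with earlier results of these data known. They were the ligands Il6, Il11, Lif and Osm, the shared receptor chain Il6st (gp130) and the partner chains Il6ra, Il11ra1, Osmr and Lifr. The feedback inhibitor Socs3 completed the list. All 10 were present among the 16199 gene symbols of the table, and all 10 passed the filter on low values. RNA was sequenced from 3 wild-type libraries and from 3 whose genotype label is ITIH5 knockdown. The 6 came from myocardium taken 7 days after the left anterior descending branch of the coronary artery was tied off. The labels do not say how Itih5 was knocked down, in which cells, at what age the mice were used or which strain they were. Whether the 3 libraries of a group are from 3 different mice is not in the labels, so a p-value here reflects the library-to-library spread, part or all of which may be technical. The study asked whether ITIH5, a secreted member of a hyaluronan-binding protein family, shapes scarring after infarction through the immune response.

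Cytokines of the interleukin 6 family signal through gp130, which pairs with a chain that recognises the ligand. Interleukin 6 and interleukin 11 first bind their own alpha chains, whereas leukaemia inhibitory factor and oncostatin M join gp130 to the LIF receptor or the oncostatin M receptor. The bound receptor activates JAK kinases and the transcription factor STAT3, and STAT3 induces Socs3, which then blocks gp130. In the infarcted heart the family is known for acting on heart muscle survival, on macrophages and on fibroblasts.

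Stretches of 2 promoters are shown because they hold motifs of factor families known, as background, to induce these genes. They come from RefSeq, build GRCm38.p6, and run 5′ to 3′ along the strand of the gene.

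Il6: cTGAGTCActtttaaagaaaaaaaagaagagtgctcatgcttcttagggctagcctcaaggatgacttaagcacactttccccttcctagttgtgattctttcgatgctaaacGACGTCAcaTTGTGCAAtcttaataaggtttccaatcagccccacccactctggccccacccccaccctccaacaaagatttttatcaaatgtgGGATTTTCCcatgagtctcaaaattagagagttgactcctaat
Socs3: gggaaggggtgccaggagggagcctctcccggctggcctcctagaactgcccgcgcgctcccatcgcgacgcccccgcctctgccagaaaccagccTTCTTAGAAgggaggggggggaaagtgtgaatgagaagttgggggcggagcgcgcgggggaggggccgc

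The Il6 stretch is the 250 bases before the annotated start, chr5:30012864-30013113 on the plus strand. Its capitals mark, from left to right, TGAGTCA (an AP-1 motif), GACGTCA (part of a cyclic AMP response element), TTGNGCAA (a C/EBP motif) and GGANTTTCC (an NF-kB motif). Their first bases lie at -249, -137, -128 and -43 from the start. Of 32851 annotated promoters of 300 bases, 5.20% hold TGAGTCA, 3.21% GACGTCA, 2.94% TTGNGCAA and 1.25% GGANTTTCC, counting both strands. TGAGTCA also matched the promoters of Il11 and Lif, whereas each of the other 3 matched Il6 alone among the members. These 4 motifs were chosen after the sequence was seen, and none of them overlaps another.

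The Socs3 stretch is 165 bases at chr11:117969452-117969616 on the minus strand. It was cut from 250 bases at the first annotated exon base. The stretch lies before the RefSeq start, from which offsets count, but inside the span of the gene in GENCODE (117966079 to 117970047). Its capitals mark TTCTTAGAA, a match to the STAT motif TTCNNNGAA at -154, a motif that 8.30% of promoters hold. The stricter form TTCCNGGAA, contained in the looser one and held by 1.15% of promoters, matched no member promoter. Socs3 was the only 1 of the 9 members with a promoter in the table to match TTCNNNGAA. A match describes letters in a window and not a bound site.

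The scale of the values matters for low genes. Values are close to TPM, a share of the reads corrected for transcript length, and their low values sit at multiples of a step that ran from 0.89 to 1.1625 between libraries. The table gives no read counts, so depth is unknown. Itih5 itself (chromosome 2, 10153571 to 10256529 in mm10) was at 9.73, 13.1 and 17.2 across the wild-type replicates, against 18.4, 10.5 and 19.96 across the labelled knockdown replicates. Its log2 difference was 0.26 (95% interval -0.39 to 0.90, exact two-sided permutation p = 0.5, where 0.1 is the smallest that 3 against 3 libraries allow). The label was therefore not visible in the transcript, and directions below refer to the labels. Replicate 1 of the labelled knockdown group stood apart, with a mean correlation of 0.952 with the other libraries, against 0.966 to 0.974 for the rest. Its heart muscle markers summed to 19398, against 5856 to 10331 in the other 5 libraries, and its macrophage markers to 3429, against 5806 to 9944.

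The members are protein-coding genes on 7 chromosomes, with coordinates given in mm10 from GENCODE M21. Osm (4236420 to 4241026) and Lif (4257557 to 4272514), close relatives, lie near each other on the plus strand of chromosome 11, where Socs3 lies far away on the minus strand (117966079 to 117970047). Osmr (6813577 to 6874969, minus strand) and Lifr (7090614 to 7197489, plus strand), which encode related gp130 partners, lie near each other on chromosome 15. Il6 is on chromosome 5 (30013114 to 30019981, plus strand), Il6st on chromosome 13 (112464070 to 112510086, plus strand) and Il6ra on chromosome 3 (89864059 to 89913196, minus strand). Il11 is on chromosome 7 (4772373 to 4782859, minus strand) and Il11ra1 on chromosome 4 (41699989 to 41769474, plus strand).

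In the order of their levels the receptors led and the ligands trailed. Il11ra1 was the most abundant member in all 6 libraries, between 83.7 and 122, followed in all 6 by Il6st, between 57.3 and 81.4. Osmr (36.1 to 44.3) and Socs3 (27.0 to 45.5) came next and changed places between libraries. Lifr (9.36 to 12.6), Il6 (7.08 to 12.7) and Il6ra (4.79 to 10.8) overlapped in range, as did Osm, Lif and Il11, which lay between 0.963 and 3.65.

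**Figure D1:**
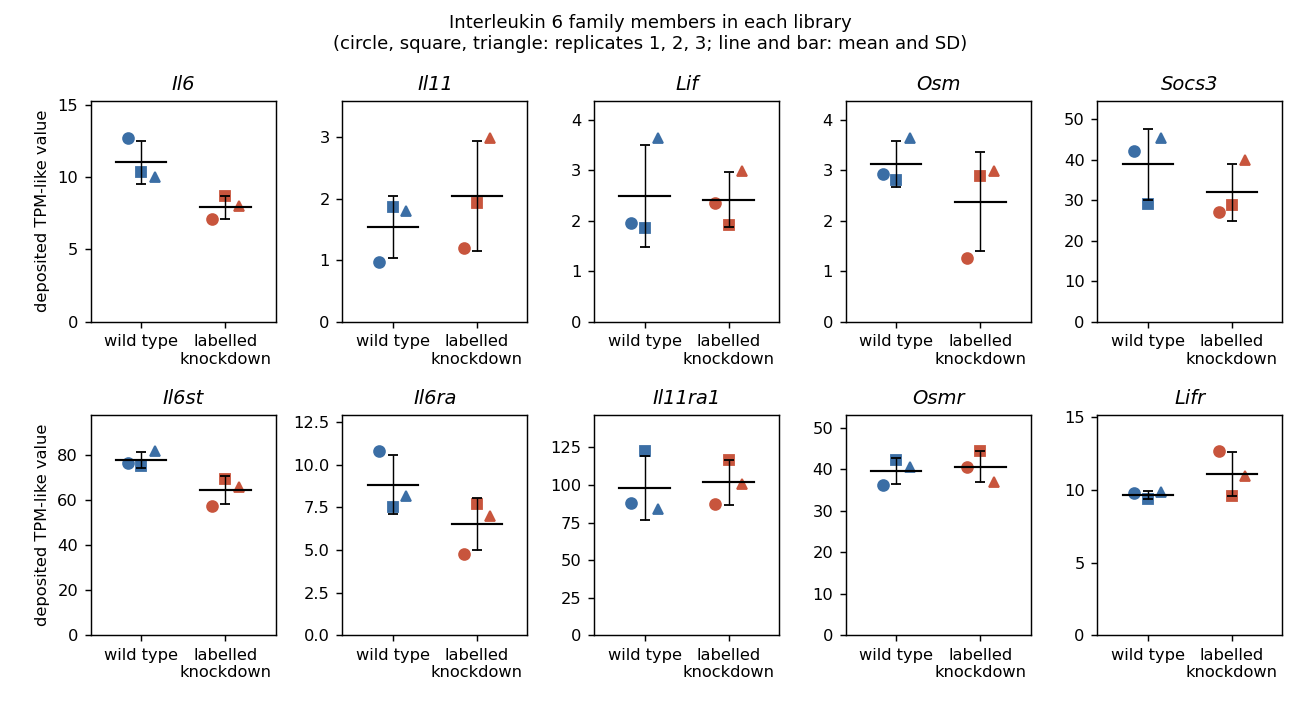
Deposited TPM-like value (vertical axis, linear and starting at 0) of each of the 10 members in the 3 wild-type and the 3 labelled knockdown libraries, with the group mean and SD. The groups are separate for Il6 (9.97 to 12.7 against 7.08 to 8.67) and Il6st (75.2 to 81.4 against 57.3 to 69.3) and overlap for the other 8.

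The clearest differences were in Il6 and in its signalling chain Il6st, both lower in the libraries labelled knockdown, and neither passed the test over all genes. Il6, the inflammatory cytokine of the family, was at 12.7, 10.3 and 9.97 across the wild-type replicates, against 7.08, 8.67 and 7.98 across the labelled knockdown replicates. Every wild-type library was above every labelled knockdown library. The mean of Il6 was 11.01 ± 1.49 (SD, n = 3) in wild type and 7.91 ± 0.798 (SD, n = 3) under the knockdown label, a log2 difference of -0.43 (SE 0.13, 95% interval -0.74 to -0.12, limma unadjusted p = 0.0134, Benjamini-Hochberg adjusted p = 0.297). Counted in steps, Il6 lay at 13.1, 11.1 and 11.2 against 6.09, 9.004 and 7.998, so the gap between the groups was about 2 steps. Without wild-type replicate 1 the unadjusted p of Il6 was 0.0558, at a log2 difference of -0.33. In a bulk sample, fewer cells that make Il6 and less Il6 RNA per cell cannot be told apart.

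Il6st, the gene of gp130, was at 76.2, 75.2 and 81.4 across the wild-type replicates, against 57.3, 69.3 and 65.9 across the labelled knockdown replicates, again without overlap. Its mean was 77.6 ± 3.35 (SD, n = 3) in wild type and 64.2 ± 6.21 (SD, n = 3) under the knockdown label, and the log2 difference was -0.27 (SE 0.10, 95% interval -0.51 to -0.04, limma unadjusted p = 0.0298, adjusted p = 0.310). Replicate 1 of the labelled knockdown group was lowest. Without it the log2 difference was -0.20 and the unadjusted p 0.0629. The unadjusted p was also above 0.05 without wild-type replicate 1 (0.0683), 2 (0.0513) or 3 (0.0824).

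Il6ra, the alpha chain that binds interleukin 6, was at 10.8, 7.50 and 8.16 against 4.79, 7.72 and 6.98. The groups overlapped, since wild-type replicate 2 was below replicate 2 of the labelled knockdown group. Counted in steps, these libraries were nearly level, at 8.04 and 8.02. The log2 difference was -0.40 (SE 0.20, limma adjusted p = 0.370), and it was -0.22 with replicate 1 of the labelled knockdown group left out and -0.26 without wild-type replicate 1.

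Counts of members were set beside those of the whole table. With limma, 0 of the 10 members passed at an adjusted p of 0.05, as did 0 of all 14025 tested genes, which is 0% of them. At an unadjusted p under 0.05 there were 2 members, Il6 and Il6st, both lower, beside 14.8% of all tested genes in either direction, 6.55% lower and 8.29% higher. With 10 members, 2 is close to the share in the whole table. Groups did not overlap for the same 2 members, beside 22.4% of all genes in either direction, 9.88% lower and 12.6% higher. The number of members at that unadjusted p was 0 without wild-type replicate 1, 1 (Il6) without wild-type replicate 3 or without replicate 1 of the labelled knockdown group, and 3 without replicate 2 of that group, when Il6ra joined. Without wild-type replicate 2 there were 2 again, but these were Il6 and Socs3. There were 6 members with a lower mean and 4 with a higher one, with a median log2 difference of -0.14, beside 49.2% of all genes with a lower and 50.8% with a higher mean and a median of 0.0046. With every library rescaled to a sum of 1000000, 8 of the 10 members and 67.7% of all genes had a lower mean. The members' median was -0.03 without replicate 1 of the labelled knockdown group.

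**Figure D2:**
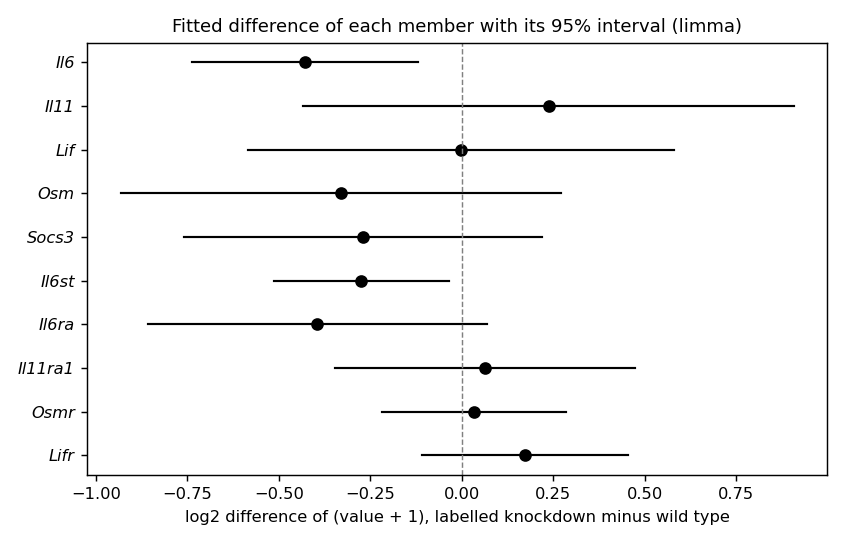
Fitted log2 difference (horizontal axis, labelled knockdown minus wild type, points) of each member with its 95% interval (lines). The intervals of Il6 (-0.74 to -0.12) and Il6st (-0.51 to -0.04) lie below 0, and those of the other 8 members include 0.

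The other ligands were near the limit of what the table resolves. Osm, which encodes oncostatin M, a product of macrophages and neutrophils, was at 2.93, 2.81 and 3.65 across the wild-type replicates, against 1.26, 2.89 and 2.99 across the labelled knockdown replicates. Replicate 1 of the labelled knockdown group, at 1.08 steps, was the single low library, and the log2 difference was -0.33 (SE 0.26, limma adjusted p = 0.528) with it and -0.06 without it. Lif had 1.95, 1.86 and 3.65 in wild type against 2.36, 1.91 and 2.99 (log2 difference -0.0025, SE 0.25). Il11, a cytokine that acts on fibroblasts, had 0.963, 1.86 and 1.80 in wild type against 1.205, 1.93 and 2.99 (log2 difference 0.24, SE 0.28). The difference of Il11 was 0.02 without replicate 3 of the labelled knockdown group, 0.45 without its replicate 1 and 0.06 without wild-type replicate 1. For Lif and Il11 the values of both groups lay within a few steps of 0 and of each other.

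The partner chains other than Il6ra overlapped between the groups. Osmr, the oncostatin M receptor chain, was at 36.1, 42.3 and 40.6 against 40.7, 44.3 and 36.9, with a log2 difference of 0.03 (95% interval -0.22 to 0.29, limma adjusted p = 0.887). Il11ra1 had 87.8, 122 and 83.7 in wild type against 87.3, 117 and 101 (log2 difference 0.06, 95% interval -0.35 to 0.47). In each group, replicate 2 was the highest library for Il11ra1. The differences of Osmr and Il11ra1 turned negative, at -0.11 and -0.08, when every library was rescaled to a sum of 1000000, a scaling that moved the median of all genes from 0.0046 to -0.13. Lifr, the LIF receptor chain, was at 9.76, 9.36 and 9.88 against 12.6, 9.61 and 10.98. Its log2 difference was 0.17 (SE 0.12, limma adjusted p = 0.489), and the highest library was replicate 1 of the labelled knockdown group. Without that library it was 0.08, without replicate 2 of that group 0.26, and with every library rescaled to a sum of 1000000 it was 0.04. Counted in steps, Lifr was nearly level, at 10.01, 10.04 and 11.1 in wild type against 10.9, 9.99 and 11. On that scale its log2 difference was 0.03.

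A ratio between 2 genes of the same library hardly depends on how the libraries were scaled against each other, so each receptor chain was also set against Il6st. The Lifr value was 12.8%, 12.45% and 12.1% of the Il6st value across the wild-type replicates, against 22.1%, 13.9% and 16.7% across the labelled knockdown replicates, without overlap. For Osmr the ratio was 47.4%, 56.3% and 49.8% against 71.0%, 63.9% and 56.1%, where the lowest labelled knockdown library fell just under the highest wild-type library. Il11ra1 ran from 103% to 163% of Il6st in wild type and from 152% to 168% in the libraries labelled knockdown, and Il6ra from 9.97% to 14.1% and from 8.37% to 11.1%. Of the 9 other members, Lifr and Il11 had ratios, on the log2(value + 1) scale, that did not overlap. As a plain percent of Il6st, Il11 did overlap, at 1.26%, 2.48% and 2.21% against 2.10%, 2.78% and 4.55%. Over all tested genes, 41.9% had a ratio to Il6st without overlap, a larger share than among the members. The denominator Il6st was itself lower without overlap in the libraries labelled knockdown, which raises such ratios there.

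**Figure D3:**
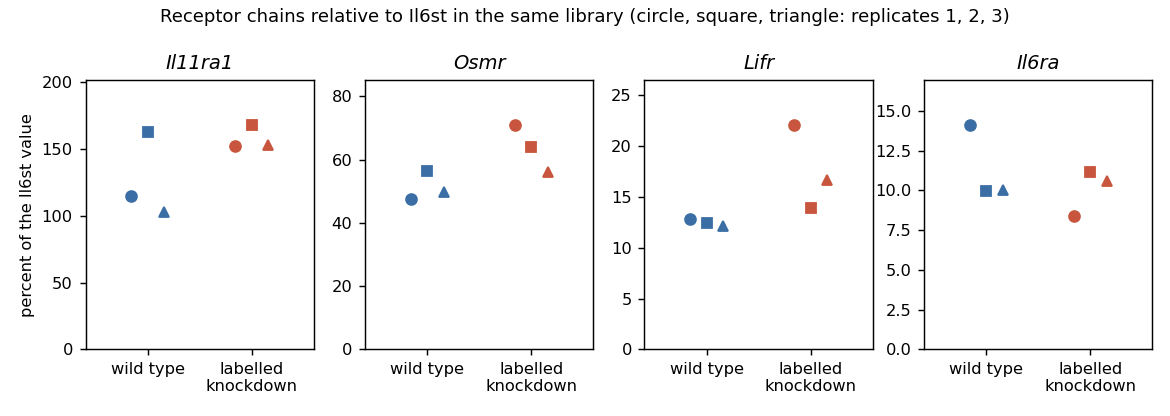
Value of each partner chain as a percent of the Il6st value in the same library (vertical axes, linear and starting at 0), for 3 wild-type and 3 labelled knockdown libraries. Lifr lies between 12.1% and 12.8% in wild type and between 13.9% and 22.1% in the libraries labelled knockdown; the other 3 chains overlap.

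Il6 was likewise set against the chains of its own receptor. Its value was 16.7%, 13.7% and 12.2% of the Il6st value across the wild-type replicates, against 12.4%, 12.5% and 12.1% across the labelled knockdown replicates, and 118%, 138% and 122% of the Il6ra value against 148%, 112% and 114%. Neither ratio separated the groups. The sum of the 5 receptor chains was 221, 257 and 224 across the wild-type replicates, against 203, 248 and 222 across the labelled knockdown replicates. Of that sum Il6st made up 33.4% ± 3.68 (SD, n = 3) and 28.7% ± 0.934 (SD, n = 3), with overlap, since wild-type replicate 2 was at 29.3% and replicate 3 of the labelled knockdown group at 29.7%.

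Socs3, the STAT3-induced inhibitor whose promoter stretch is given above, was at 42.0, 29.0 and 45.5 across the wild-type replicates, against 27.0, 28.8 and 39.9 across the labelled knockdown replicates. The groups overlapped, with wild-type replicate 2 below replicate 3 of the labelled knockdown group. The log2 difference was -0.27 (SE 0.21, 95% interval -0.76 to 0.22, limma adjusted p = 0.527). The difference of Socs3 was -0.46 (unadjusted p = 0.0442) without wild-type replicate 2, -0.15 without wild-type replicate 3, -0.16 without replicate 1 of the labelled knockdown group and -0.44 without its replicate 3. It was -0.41 with every library rescaled to a sum of 1000000.

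Markers of other cells were summed in each library. The sums of the macrophage and B cell markers did not overlap between the groups, whereas those of the neutrophil, heart muscle, fibroblast and adipocyte markers did. Sums of the endothelial, smooth muscle and pericyte, mesothelial, T cell, erythroid and skeletal muscle markers overlapped as well. Over all tested genes, 49.2% had a lower mean and 22.4% had no overlap between the groups. Of the 9 macrophage markers, 9 had a lower mean, and their summed level ran from 7399 to 9944 in wild type and from 3429 to 6901 in the libraries labelled knockdown. Neutrophil markers were lower for 6 of 6 tested, with sums of 39.0 to 124 against 29.6 to 73.9. Heart muscle markers were higher for 8 of 8, with sums of 5856 to 7342 against 6192 to 19398. Fibroblast markers were lower for 5 of 8, with sums of 18390 to 21532 against 13060 to 20409. No macrophage, neutrophil, heart muscle or fibroblast marker that the table holds was at 0 in any library. Replicate 1 of the labelled knockdown group had 1078 values between 0 and 0.2, and each other library had 0. It held 212 values at 0, against 731 to 1082 elsewhere, so an absent gene need not read as 0 there. Adipocyte markers summed to between 488 and 1403 in wild type and to 4.91, 11.7 and 1473 in replicates 1, 2 and 3 of the labelled knockdown group, with Plin1, Cidec, Retn and Lep at 0 in some libraries. B cell markers summed to between 672 and 1321 against 61.1 to 520. Their part in the values of Il6, Il6st and the other members was not tested.

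Among the other ligands and receptors of the family, 8 of 12 listed genes were in the table and 7 were tested. None passed, 3 had a lower mean and 4 a higher one, and the median log2 difference was 0.10, which turned to -0.02 with every library rescaled to a sum of 1000000. Cntfr, the receptor chain for ciliary neurotrophic factor, had 4.88, 6.60 and 7.34 in wild type against 2.47, 3.84 and 4.99 (log2 difference -0.63, SE 0.23, limma unadjusted p = 0.0307, adjusted p = 0.313). Its groups overlapped narrowly, between wild-type replicate 1 and replicate 3 of the labelled knockdown group. The unadjusted p of Cntfr was above 0.05 without wild-type replicate 2 (0.0832) or 3 (0.105), and without replicate 1 (0.0773, at -0.42) or 2 (0.0556) of the labelled knockdown group. Il27ra, the interleukin 27 receptor chain that pairs with gp130, had 7.80, 7.48 and 7.16 in wild type against 10.3, 7.69 and 10.98 (log2 difference 0.32, SE 0.14, and 0.19 with every library rescaled to a sum of 1000000). The ligand genes Cntf (0.24), Clcf1 (0.13) and Ctf1 (0.10), and Ebi3 (-0.17), whose product joins Il27, had log2 differences within 1.5 SE of 0. Il27 was listed at 0 in 3 libraries and did not pass the filter.

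Genes that relay the gp130 signal had lower means for 11 of 13 tested, beside 49.2% of all genes. Their median log2 difference was -0.12, and 0 passed the test over all genes. Groups did not overlap for 4 of the 13, all lower, beside 9.88% of all genes lower and 22.4% in either direction. Grb2, an adaptor on the MAP kinase branch, had 133, 117 and 121 in wild type against 82.96, 110 and 105 (log2 difference -0.33, SE 0.13, limma adjusted p = 0.318), without overlap, and its difference was -0.20 when replicate 1 of the labelled knockdown group was left out. The adaptor gene Shc1 (-0.15) also had no overlap, whereas Jak1 (-0.15) overlapped as deposited. Counted in steps, Jak1 did not overlap, at 89.6 to 112 in wild type against 68.1 to 87.0. Dividing by the step moved the median of all genes to -0.14. Stat3, named for its role and not by the rule, had 61.5, 59.2 and 71.5 in wild type against 58.2, 57.8 and 56.9 (log2 difference -0.15, SE 0.098). The groups of Stat3 did not overlap, and its difference was -0.07 without wild-type replicate 3.

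Feedback inhibitors other than Socs3 went both ways, 7 of 11 with a lower mean and 4 with a higher one (median log2 difference -0.03), and 0 passed. Their median was -0.0053 without replicate 1 of the labelled knockdown group and 0.0092 with mitochondrial genes left out and every library rescaled. Socs2, a suppressor best known from growth hormone signalling, was at 36.1, 34.7 and 31.4 across the wild-type replicates, against 46.1, 39.5 and 41.9 across the labelled knockdown replicates (log2 difference 0.31, SE 0.10, limma unadjusted p = 0.0168, adjusted p = 0.299). Every labelled knockdown library was above every wild-type library, as for 12.6% of all genes. With every library rescaled to a sum of 1000000 the difference of Socs2 was 0.17, at an unadjusted p of 0.118, and without wild-type replicate 3 its unadjusted p was 0.0537. Ptpn1, a phosphatase that acts on JAK kinases, had 59.6, 50.7 and 55.3 in wild type against 35.3, 48.2 and 45.9 (log2 difference -0.36, SE 0.14), with -0.22 when replicate 1 of the labelled knockdown group was left out. Socs6 had a log2 difference of -0.16. Cish, a STAT5 target, had 0.40 (SE 0.28), with a single high library, replicate 1 of the labelled knockdown group at 9.02, against 3.53 to 3.99 elsewhere, and 0.055 without that library.

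Genes that shed the receptor or control the Il6 message had lower means for 9 of 12 tested, beside 49.2% of all genes. The median log2 difference was -0.08, and 0 passed. Without replicate 1 of the labelled knockdown group, 7 of 12 had a lower mean, with a median of -0.0093. Il1b, an inducer of Il6, had 14.6, 17.9 and 16.5 in wild type against 8.30, 7.66 and 14.97 (log2 difference -0.67, SE 0.23, limma adjusted p = 0.302), with overlap through replicate 3 of the labelled knockdown group. The 3 genes with higher means had no overlap between the groups as deposited, beside 12.6% of all genes in that direction. Nfkbiz, a nuclear cofactor needed for Il6 induction, had 17.5, 20.6 and 16.97 in wild type against 22.1, 27.0 and 25.9 (log2 difference 0.43, SE 0.12, limma unadjusted p = 0.00885, adjusted p = 0.296). Zc3h12a (0.22, SE 0.097), a nuclease that degrades Il6 message, and Arid5a (0.24, SE 0.11), which protects that message, were the others. With every library rescaled to a sum of 1000000, the log2 difference was 0.095 for Zc3h12a, 0.11 for Arid5a and 0.29 for Nfkbiz, whose unadjusted p was then 0.131. Counted in steps, all 3 genes overlapped between the groups. On that scale Il1b did not overlap, though narrowly, at 15.02 in wild-type replicate 1 against 15 in replicate 3 of the labelled knockdown group.

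STAT3-responsive and acute phase genes had lower means for 18 of 23 tested (25 of 27 listed genes in the table), with a median log2 difference of -0.16, or -0.25 without replicate 1 of the labelled knockdown group. None passed over all genes, 7 were lower and 1 higher at an unadjusted p under 0.05, and 5 lower and 1 higher did not overlap. The background over all genes was 6.55% lower and 8.29% higher at that p, and 9.88% lower and 12.6% higher without overlap. Of all genes, 49.2% had a lower mean. Ccl2, a monocyte attractant, had 41.1, 42.4 and 52.1 in wild type against 19.1, 21.1 and 24.9 (log2 difference -1.02, SE 0.14, limma adjusted p = 0.296). Lcn2, the lipocalin gene of neutrophils and stressed tissue, had 7.82, 9.45 and 11.1 in wild type against 3.64, 2.84 and 5.99 (log2 difference -1.05, SE 0.24). Il4ra, a receptor chain for interleukin 4, had -0.51 (SE 0.13) as its log2 difference. Vegfa, an angiogenic factor that hypoxia also induces, went the other way, at 43.9, 48.7 and 35.2 against 208, 73.0 and 75.9 (log2 difference 1.29, or 0.80 with replicate 1 of the labelled knockdown group left out). These genes answer to other signals as well. Macrophage and neutrophil markers had lower means beside them, as given above, and the part of those cells in this list was not tested.

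**Figure D4:**
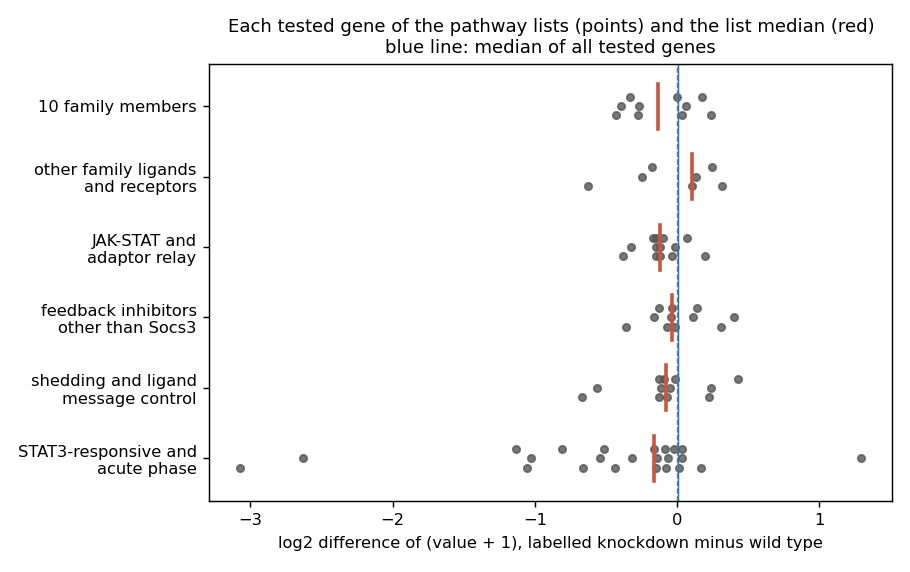
Log2 difference (horizontal axis, labelled knockdown minus wild type) of each tested gene (points) in the 10 members and 5 related lists, with the list median (red) and the median of all tested genes (blue line, 0.0046). Medians run from -0.16 for STAT3-responsive and acute phase genes to 0.10 for the other ligands and receptors.

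Directions of the members differed in how far they held over the 17 other settings and left-out libraries. Not all of these could change a sign. Settings that altered only the filter on low values, limma's intensity trend or a block for the replicate number leave every log2 difference as it was. Dividing by the step and rescaling to a sum of 1000000 are nearly the same operation, with -0.57 and -0.56 for Il6. Il6, Il6st, Il6ra and Socs3 stayed lower in all 17, and Il6 ran from -0.57 to -0.33. Lifr stayed higher in all 17, from 0.03 to 0.26, and Osm lower in all 16 in which it was tested. Il11 stayed higher in all 16 in which it was tested, from 0.02 to 0.45. Lif, Osmr and Il11ra1 took both signs. The lowest adjusted p of any member over these settings was 0.236, for Il6 without replicate 3 of the labelled knockdown group.

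**Figure D5:**
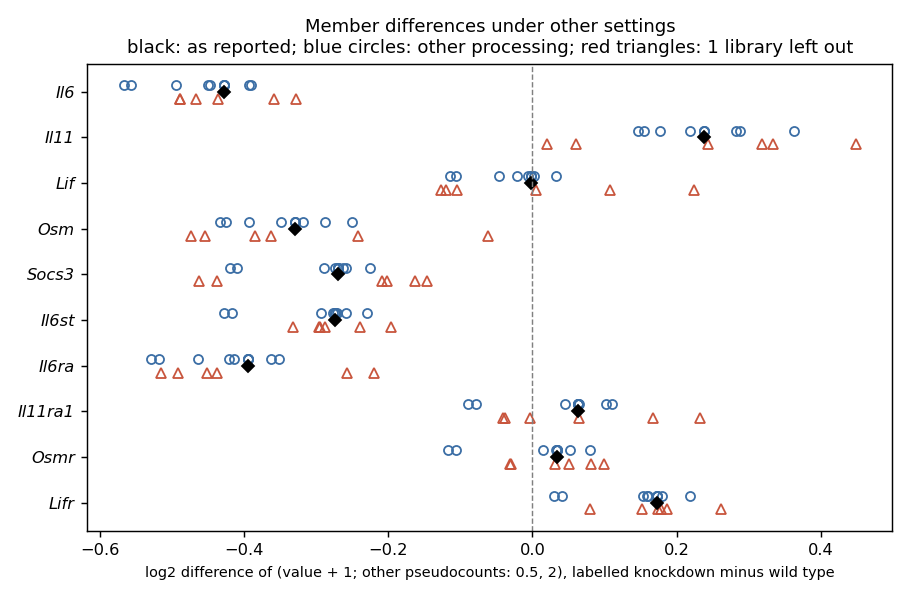
Log2 difference of each member (horizontal axis, labelled knockdown minus wild type) as reported (black), under other processing (blue circles) and with 1 library left out (red triangles). All points of Il6 lie between -0.57 and -0.33 and all points of Il6st between -0.43 and -0.20, while those of Lif, Osmr and Il11ra1 lie on both sides of 0.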

How the data were processed

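Poly(A)-enriched RNA libraries were sequenced. The build mm10 is named per the submitters' processing notes. The sources used here do not give the aligner, the quantifier or the annotation. The labels' protocols name 2 library kits. The authors deposited 1 table, named as TPM, whose values are an adjusted score: columns sum to between 901563 and 1159657, and 97.4% to 100% of low values were no more than 0.15 steps from an integer number of steps. The adjustment is not stated. Of 16205 rows, 6 repeats of a symbol were left out, and 8 symbols had become dates.

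Values were analysed as log2(value + 1) for 14025 genes with a mean of at least 1, with limma 3.58.1 in R 4.3.3 (intensity trend, no covariate, Benjamini-Hochberg adjustment over all tested genes at 0.05). The fit was tested on simulated data. The test had been planned for TPM. Lists are described by counts and medians. The members and lists were chosen with earlier results of these data known. The text names all members, the other family genes and, from each of 4 pathway lists, the 4 genes of smallest p, less some that are not reported here. Coordinates come from GENCODE M21, and promoters, matched for 9 of 10 members, from RefSeq GRCm38.p6. Protein motifs were not analysed here.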

Additional observations from a re-analysis of the deposited data

How the results depend on the processing

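The limits lie in 3 libraries a group, an unknown depth, whole steps that blur Osm, Lif and Il11, and a scale between libraries set by an unstated adjustment. Over all genes the count passing was 0 under each other processing and ran from 0 to 13 with 1 library left out; the count at an unadjusted p under 0.05 ran from 995 to 2585. Members at that p were 2 under each other processing except the replicate block (1, Il6), and ran from 0 to 3 with 1 library left out. Same-numbered libraries had correlations of deviations of 0.0559, 0.0608 and 0.143, and pairs of unlike number had -0.109 to 0.0595. Wild-type replicate 1 correlated slightly better with replicate 2 of the labelled knockdown group, and every other library correlated best with its own number. These values do not settle whether the replicate numbers pair the libraries. With the replicate block, 1803 genes were at an unadjusted p under 0.05, against 2081. The difference of Itih5 was above 0 under every setting run (0.06 to 0.52).

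Signs changed for 6 genes, each with a difference within 1 SE of 0; the cause was not tested. Lif was at 0.0014 with a pseudocount of 0.5, 0.033 with mitochondrial genes left out and every library rescaled, 0.0052 to 0.22 without wild-type replicate 3 or replicate 1 or 2 of the labelled knockdown group. With a sum of 1000000 a library, Osmr was at -0.11, Il11ra1 at -0.079 and Ctf1 at -0.019. With values divided by the step, an alternative added after the data were seen, they were at -0.12, -0.090 and -0.029. With 1 library left out, Osmr ran from -0.031 to 0.10, Il11ra1 from -0.041 to 0.23, Ctf1 from -0.058 to 0.19, Clcf1 from -0.11 to 0.36, Ebi3 from -0.35 to 0.011 and Lif from -0.13 to 0.22.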

Other observations

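Genes whose pattern over the 6 libraries was most like that of a member were found by Pearson's r on the log2(value + 1) scale, among 10604 named genes with a mean of at least 5. With 6 libraries and so many candidates, high values of r arise easily, and they are given as a description with no test. For Il6 these were Chmp6 (r = 0.994), a gene of the membrane-remodelling ESCRT machinery, Gla (r = 0.989), the lysosomal alpha-galactosidase gene, and Zcchc17 (r = 0.987). Gla was at 30.4, 22.6 and 19.99 across the wild-type replicates, against 10.8, 17.4 and 14.97 across the labelled knockdown replicates, in the same order of libraries as Il6. For Osmr they were Edrf1 (0.984), Tmf1 (0.981) and the RNA-editing enzyme gene Adarb1 (0.980), and for Socs3 Dnmt1 (0.995), the maintenance DNA methyltransferase gene, Nfic (0.988) and Sorl1 (0.974). With every library rescaled to a sum of 1000000, r for these 9 genes lay between 0.957 and 0.995.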
